A study of Mus musculus with 24 samples.

Results

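Serinc3, 0610039K10Rik, Pkig and Slco4a1 lie on the chromosome that carries Plcg1, and Sipa1l2 lies on the chromosome that carries Plcg2. These 5 genes, of 24421 in the deposited count tables, are neighbours of the targeted genes that were selected on their measured counts, by a fall in double-deficient (PLCγ1 and PLCγ2) against wild-type progenitors. That fall is therefore a description and carries no test here. The question put to the data was whether the 5 genes follow the allele to which they are linked, and it was asked over all 4 genotypes and in both cell populations. The comparison between the single-deficient genotypes uses the levels of libraries that did not enter the choice, although its test takes the spread from all 12 libraries of a population, the choosing ones included.

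RNA was sequenced from 24 libraries, 2 populations from each of 12 mice, with 3 mice for each of 4 genotypes. The labels write the genotypes as PLCgamma1+/+PLCgamma2+/+ (wild type), PLCgamma1-/-PLCgamma2+/+ (PLCγ1-deficient), PLCgamma1+/+PLCgamma2-/- (PLCγ2-deficient) and PLCgamma1-/-PLCgamma2-/- (double-deficient). The populations are common lymphoid progenitors (CLPs), sorted as Lin-IL-7R+ cells, and B cell progenitors, sorted as B220+IgM-IL-7R+ cells. In the study's methods, the PLCγ1 loss is a floxed Plcg1 allele cut by a Cre driven from the interferon-inducible Mx promoter, the PLCγ2 loss is a germline null allele, and donors of every genotype carried MxCre and a YFP reporter and received poly(I:C). Donor marrow was then grown in lethally irradiated wild-type recipients of another CD45 allotype, and donor-type cells were sorted. Each recipient gave a library of both populations, the Mx promoter is active in many cell types, and how many donors stand behind each genotype was not stated, so p-values measure the spread between these libraries. The ages of the donors and recipients are not in the labels. The study's methods give ages in weeks for the experimental and control mice, and for the donors at the poly(I:C) injections. Those methods also place the experimental and control mice on a mixed strain background and count both sexes among them. In these whole-population libraries, fewer cells of a type and less RNA per cell cannot be told apart.

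PLCγ1 and PLCγ2 cleave a membrane phosphoinositide into inositol trisphosphate and diacylglycerol, which release calcium and activate protein kinase C downstream of the pre-B cell receptor and B cell receptor. Genes close to a targeted locus are inherited with it, so that a segment of the chromosome around the modified allele can come from the strain of the embryonic stem cells. The strain of origin of these segments was not determined here.

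By the RefSeq annotation of GRCm38.p6 (mm10), with strands taken from GENCODE, Serinc3 covers chr2:163623273-163645149 on the minus strand. It starts 2.89 Mb from the start of Plcg1, which covers chr2:160731310-160775760. 0610039K10Rik is a long non-coding RNA gene on the plus strand at chr2:163644850-163645800, and it overlaps the 5′ end of Serinc3 by 300 bases. Pkig follows on the plus strand at chr2:163658211-163726158, 12.4 kb after the end of 0610039K10Rik, so that the 3 genes fill 103 kb. Slco4a1 lies at chr2:180456226-180474853, 19.7 Mb from Plcg1. Sipa1l2 lies at chr8:125418068-125569863 on the minus strand, 7.92 Mb from the start of Plcg2 at chr8:117498275-117635142.

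The promoters of the 3 adjacent genes are shown because these genes lie side by side and each was lowest in double-deficient libraries, which the choice favours. Each is the RefSeq window (GRCm38.p6) from 250 bases before to 50 bases after an annotated start, written 5′ to 3′ on the strand of the gene, and the RefSeq table holds a window for 5 of the 5 genes. Capitals mark GGGCGG (or CCGCCC on the other strand) and CCAAT (or ATTGG). The Serinc3 window is chr2:163645094-163645393 on the minus strand, that of 0610039K10Rik is chr2:163644600-163644899 on the plus strand, and the first of the Pkig windows is chr2:163658136-163658435 on the plus strand.
Serinc3: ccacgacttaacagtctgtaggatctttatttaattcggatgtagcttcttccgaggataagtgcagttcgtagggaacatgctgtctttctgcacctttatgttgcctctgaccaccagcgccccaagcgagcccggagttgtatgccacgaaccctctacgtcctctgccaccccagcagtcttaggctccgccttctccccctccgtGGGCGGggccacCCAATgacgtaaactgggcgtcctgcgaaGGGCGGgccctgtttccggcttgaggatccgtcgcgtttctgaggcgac
0610039K10Rik: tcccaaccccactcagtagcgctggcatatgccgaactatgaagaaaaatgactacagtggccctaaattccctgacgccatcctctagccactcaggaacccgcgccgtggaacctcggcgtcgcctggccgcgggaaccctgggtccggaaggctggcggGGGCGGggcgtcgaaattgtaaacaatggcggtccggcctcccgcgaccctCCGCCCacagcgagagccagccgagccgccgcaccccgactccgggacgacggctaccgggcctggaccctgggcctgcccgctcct
Pkig: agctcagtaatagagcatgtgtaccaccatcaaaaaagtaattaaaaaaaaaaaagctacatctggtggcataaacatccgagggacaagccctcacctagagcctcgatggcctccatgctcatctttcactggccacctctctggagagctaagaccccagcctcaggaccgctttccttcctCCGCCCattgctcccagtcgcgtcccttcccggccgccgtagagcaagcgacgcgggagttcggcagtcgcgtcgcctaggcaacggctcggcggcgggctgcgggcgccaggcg

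The Serinc3 window held GGGCGG at 2 places and CCAAT at 1, the 0610039K10Rik window held GGGCGG at 2 places and no CCAAT, and the Pkig window held GGGCGG at 1 place and no CCAAT. Of all 32544 promoter windows in the table, 35.9% held GGGCGG and 37.4% held CCAAT on either strand. TGACG, searched on both strands, was present once in Serinc3, where its first base is the last base of CCAAT, once in 0610039K10Rik and not in Pkig, against 20.9% of all windows. GGAAAA, searched on both strands, was in none of the 3 windows and in 23.3% of all windows. GC content was 57.7% for Serinc3, 67.3% for 0610039K10Rik and 58.7% for Pkig, against a median of 53% over the table.

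Reads assigned to genes ran from 4232345 to 33219995 in the CLP libraries and from 1479582 to 25057223 in the B cell progenitor libraries, with 3 B cell progenitor libraries under 3000000 (PLCγ2-deficient replicates 1 and 3, double-deficient replicate 1). Reads outside annotated exons made up 17.9% to 45.2% of the CLP tables and 59.9% to 87.3% of the B cell progenitor tables. All 5 genes passed the filter on low counts in both populations, among 15209 genes tested in CLPs and 15001 in B cell progenitors. Plcg1 counts over the whole gene did not separate the genotypes (106 ± 5.88 CPM, reads per 1000000 normalized reads, in wild-type and 106 ± 33.2 in PLCγ1-deficient CLPs, SD, n = 3), while Plcg2 stood at 232 ± 43.1 in wild-type and 122 ± 18.9 in PLCγ2-deficient CLPs. Xist, the RNA of the inactive X chromosome, stood between 1309 and 2248 CPM in all libraries of both Plcg1-/- genotypes and between 23.5 and 741 CPM in all libraries of both Plcg1+/+ genotypes, so that Plcg1 genotype and the sex of the cells cannot be told apart in any comparison across Plcg1. The summed CPM of 10 B-lineage markers ran from 1064 to 7592 in CLPs and from 2429 to 9035 in B cell progenitors, so that this list did not separate the sorted populations. The summed CPM of 7 myeloid markers ran from 2272 to 8591 in CLPs and from 1426 to 7686 in B cell progenitors. It was highest in replicate 1 of each of the 3 mutant genotypes, and in CLPs its median was 2577 CPM in wild-type, 6198 in PLCγ1-deficient, 4811 in PLCγ2-deficient and 5140 in double-deficient libraries. The sum of 5 macrophage markers was 35.6 to 55.2 CPM in wild-type CLPs and 55.4 to 103 CPM in the mutant CLPs, so that the ranges nearly met. In B cell progenitors it overlapped, with 28.4 to 52.7 CPM in wild-type and 46.9 to 108 CPM in PLCγ2-deficient libraries. Of 4 red cell markers, Hba-a1 and Hbb-bs were at 0 throughout, and the sum of the list had medians in B cell progenitors of 17.1 CPM in wild-type and 42.0 CPM in double-deficient libraries, with ranges of 4.19 to 45.1 and 18.8 to 53.9 CPM. The part of these cell types in the levels of the 5 genes was not tested.

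**Figure D1:**
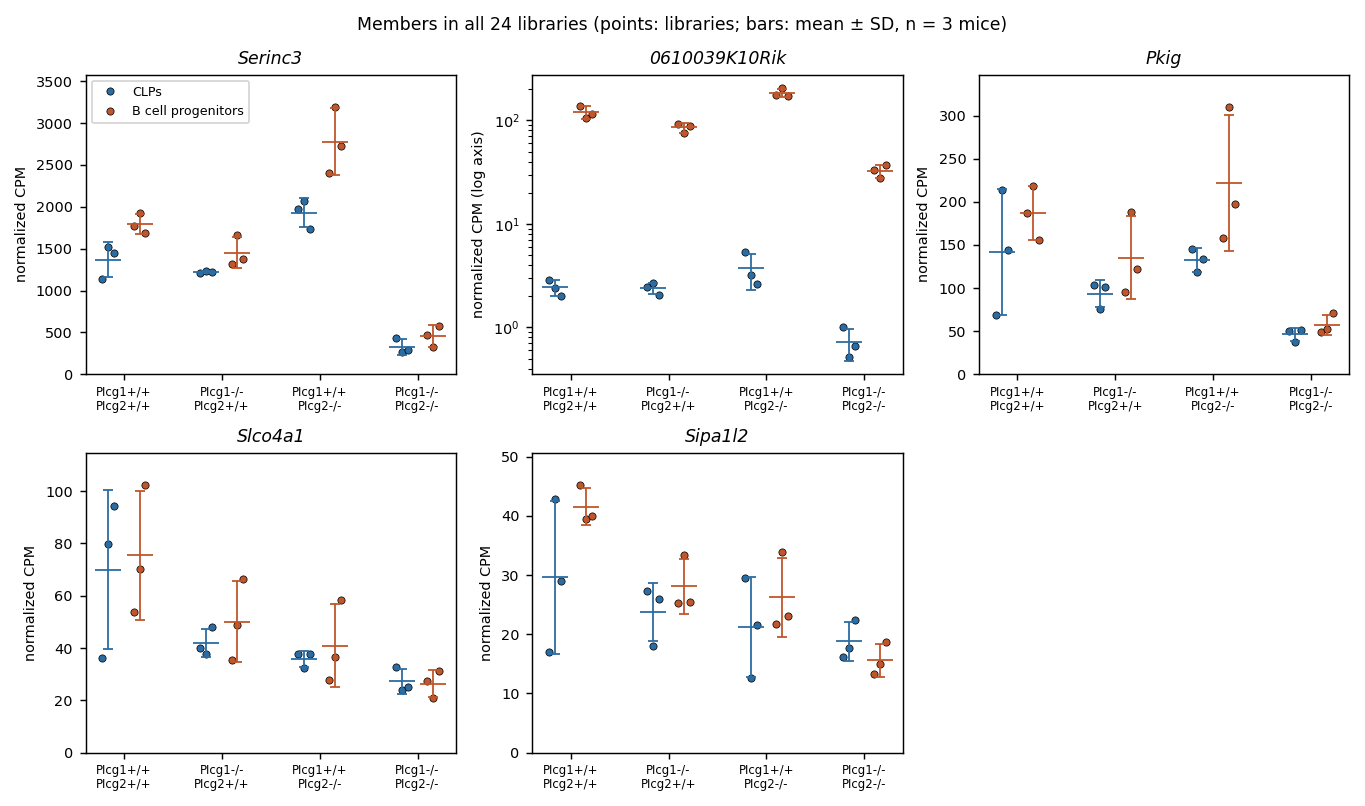
Normalized CPM (vertical axes, logarithmic for 0610039K10Rik) of the 5 genes in the 4 genotypes (horizontal axes) in CLPs (blue) and B cell progenitors (orange), with points for libraries and bars for mean ± SD of 3 mice. Serinc3, 0610039K10Rik and Pkig are lowest in double-deficient cells, Serinc3 and 0610039K10Rik are highest in PLCγ2-deficient cells, and the groups of Slco4a1 and Sipa1l2 mostly overlap.

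Serinc3 encodes a membrane protein of the serine incorporator family that restricts retroviruses. It was the most abundant of the 5 genes, and among the single-deficient cells it was lower where Plcg1 was deleted. In CLPs, Serinc3 stood at 1210, 1236 and 1225 CPM in the PLCγ1-deficient libraries and at 1978, 2073 and 1737 CPM in the PLCγ2-deficient libraries. Among B cell progenitors, it stood at 1320, 1664 and 1373 CPM against 2405, 3196 and 2731 CPM. The groups did not overlap in either population. The fold of means was 1.58 in CLPs (log2 fold change of -0.66 ± 0.19, SE) and 1.91 in B cell progenitors (-0.94 ± 0.20), PLCγ1-deficient cells being lower. Neither difference passed edgeR's quasi-likelihood test after Benjamini-Hochberg adjustment over all genes (adjusted p = 1.00 and 0.552), although both were below an unadjusted p of 0.05.

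The wild-type libraries placed Serinc3 between the single-deficient genotypes. Serinc3 stood at 1134, 1522 and 1453 CPM in wild-type CLPs and at 1766, 1921 and 1692 CPM in wild-type B cell progenitors. Relative to wild type, PLCγ2-deficient cells, whose Plcg1 alleles were not deleted, differed by 0.49 ± 0.19 on the log2 scale in CLPs and by 0.63 ± 0.20 in B cell progenitors, with no overlap of libraries in either. PLCγ1-deficient cells differed by -0.16 ± 0.19 in CLPs, where the libraries overlapped, and by -0.30 ± 0.20 in B cell progenitors, where they did not. None of these 4 differences passed the adjusted test, and they use the wild-type libraries that also served to choose the genes. The share of all genes without overlap against wild type is not given here.

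Double-deficient cells held the lowest Serinc3 values, with 429, 261 and 287 CPM in CLPs and 470, 320 and 574 CPM in B cell progenitors. The double-deficient mean was 4.21-fold below wild type in CLPs and 3.94-fold below in B cell progenitors, values that chose the gene. Against PLCγ1-deficient cells, which carry the same Plcg1 genotype and are likewise high in Xist, the double-deficient mean was 3.76-fold lower in CLPs (log2 fold change of -1.91 ± 0.19, adjusted p = 0.0048, edgeR) and 3.19-fold lower in B cell progenitors (-1.68 ± 0.21, adjusted p = 0.0214, edgeR). Against PLCγ2-deficient cells, it was 5.93-fold lower in CLPs (-2.57 ± 0.20, adjusted p = 0.000558, edgeR) and 6.11-fold lower in B cell progenitors (-2.61 ± 0.21, adjusted p = 0.000123, edgeR). These comparisons share the double-deficient libraries with the contrast that chose the gene, and low values in those libraries were fixed by the choice. The call against PLCγ1-deficient cells was lost in CLPs without double-deficient replicate 3 (adjusted p = 0.0651, edgeR) and in B cell progenitors without PLCγ1-deficient replicate 1 or 2, double-deficient replicate 2 or wild-type replicate 3 (adjusted p from 0.0545 to 0.0602, edgeR).

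0610039K10Rik, the non-coding gene that starts 293 bases from Serinc3 on the opposite strand, showed the same order of genotypes in B cell progenitors and was the gene among the 5 that passed the test between the single-deficient genotypes. In B cell progenitors, 0610039K10Rik stood at 92.9, 74.9 and 89.2 CPM in the PLCγ1-deficient libraries and at 175, 205 and 174 CPM in the PLCγ2-deficient libraries. The groups were well separated, with means of 85.7 ± 9.53 and 185 ± 17.9 CPM (SD, n = 3). PLCγ1-deficient cells were lower by 2.15-fold (log2 fold change of -1.11 ± 0.16, adjusted p = 0.0202, edgeR). The call was lost without any 1 of the 6 libraries compared (adjusted p from 0.064 to 0.145, edgeR) or without wild-type replicate 3 (adjusted p = 0.0506, edgeR), with the log2 fold change between -1.21 and -1.02. It was also lost without the 3 libraries under 3000000 reads, an alternative chosen after seeing the data (adjusted p = 0.166, edgeR), and with the 2 genotypes fitted alone (adjusted p = 0.267, edgeR).

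The wild-type B cell progenitors held 139, 106 and 115 CPM of 0610039K10Rik, between the single-deficient genotypes and overlapping neither. Those libraries also served to choose the gene, and the share of all genes without such overlap is not given here. The double-deficient B cell progenitors held 33.1, 27.5 and 37.2 CPM, 3.68-fold below the wild-type mean. They were 2.63-fold below PLCγ1-deficient cells (log2 fold change of -1.40, adjusted p = 0.0213, edgeR) and 5.66-fold below PLCγ2-deficient cells (-2.51, adjusted p = 4.49e-05, edgeR). The first of these calls was lost without PLCγ1-deficient replicate 1, double-deficient replicate 2 or wild-type replicate 3 (adjusted p from 0.0545 to 0.0995, edgeR). Both calls reuse the double-deficient libraries, whose low values chose the gene. In CLPs the gene was near the limit of counting, with between 6 and 94 reads a library. Its CLP levels were 2.90, 2.42 and 2.01 CPM in wild-type, 2.44, 2.69 and 2.08 CPM in PLCγ1-deficient, 5.36, 3.20 and 2.64 CPM in PLCγ2-deficient and 0.999, 0.517 and 0.661 CPM in double-deficient libraries. The double-deficient CLP libraries lay below all others, and the remaining 3 genotypes overlapped. In CLPs the difference between the single-deficient genotypes was -0.65 ± 0.37 on the log2 scale and did not pass the test.

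The level of 0610039K10Rik differed between populations far more than that of its neighbours. In wild-type mice it was higher in B cell progenitors than in CLPs by 5.62 ± 0.25 on the log2 scale (adjusted p = 9.33e-12, edgeR), a comparison in which 3.5% of all 17212 genes were called in either direction. The differences in PLCγ1-deficient, PLCγ2-deficient and double-deficient mice lay between 5.09 and 5.54. In the same comparison the other 4 genes differed by 0.10 to 0.49 on the log2 scale, and none was called.

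The kit named in the labels does not mark strand, and the counting tool and its strand setting are not given in the sources used here, so that reads from Serinc3 and 0610039K10Rik cannot be told apart where their exons overlap (134 exon bases). Reads counted for 0610039K10Rik were 4.50% to 8.60% of those counted for Serinc3 in the 12 B cell progenitor libraries and 0.138% to 0.271% in the 12 CLP libraries. The median share in B cell progenitors was 6.78% in wild-type, 6.5% in PLCγ1-deficient, 6.42% in PLCγ2-deficient and 7.04% in double-deficient libraries. These shares stayed between 6.42% and 7.04% while the mean of Serinc3 varied 6.11-fold between genotypes. The populations also differed in other opposite-strand genes. Of 77 genes with most of their exon bases under exons of the other strand, 19.5% were over 4-fold higher in wild-type B cell progenitors than in CLPs, against 0.132% of the 11374 genes with no such overlap. Tsix, which is antisense to Xist, stood between 0 and 0.345 CPM in all CLP libraries and between 67.2 and 176 CPM in the Plcg1-/- libraries of B cell progenitors. Reads on features of more than 1 gene were 1.06% to 1.44% of the CLP tables and 0.110% to 0.420% of the B cell progenitor tables. The part of the counting in the difference between populations was not tested, and the calls for 0610039K10Rik carry this limit.

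**Figure D2:**
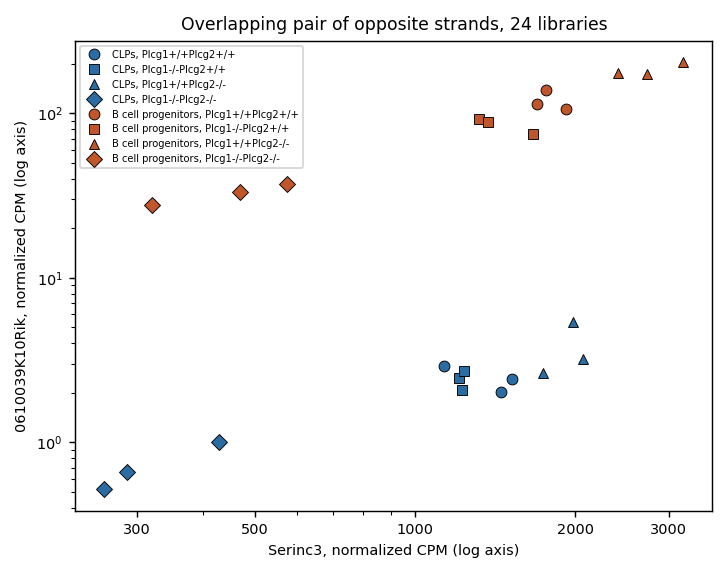
Normalized CPM of Serinc3 (horizontal, log axis) against 0610039K10Rik (vertical, log axis) in 24 libraries, with colours for the population and shapes for the genotype. Within each population the double-deficient libraries (diamonds) are lowest for both genes, and the B cell progenitor libraries form a separate band with 0610039K10Rik between 27.5 and 205 CPM, above the CLP band of 0.517 to 5.36 CPM.

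Pkig encodes an inhibitor of the catalytic subunits of protein kinase A. Its order in B cell progenitors was that of Serinc3, with wider spread. In CLPs, Pkig stood at 104, 75.5 and 101 CPM in PLCγ1-deficient and at 146, 118 and 133 CPM in PLCγ2-deficient libraries, without overlap. Among B cell progenitors, it stood at 95.3, 189 and 122 CPM against 158, 310 and 197 CPM, where the groups overlapped. In each genotype, replicate 2 was the highest of the B cell progenitor libraries of these 2 groups. The differences were -0.50 ± 0.32 on the log2 scale in CLPs and -0.72 ± 0.28 in B cell progenitors, neither past the adjusted test (adjusted p = 1.00 in both, edgeR).

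In the wild type, Pkig stood at 68.2, 214 and 144 CPM in CLPs and at 187, 218 and 156 CPM in B cell progenitors. Wild-type replicate 1, the lowest in CLPs, was also the lowest of the 12 CLP libraries for the B-lineage markers, with a summed 1064 CPM against 6084 and 4607 CPM in replicates 2 and 3, and it was the lowest wild-type CLP library for Slco4a1 and Sipa1l2. Without it, the PLCγ1-deficient CLPs differed from wild type by -0.96 for Pkig, -1.08 for Slco4a1 and -0.61 for Sipa1l2 on the log2 scale, in place of -0.60, -0.74 and -0.30, and none was called. The part of cell composition in these levels was not tested. The double-deficient libraries held 49.7, 36.9 and 51.7 CPM of Pkig in CLPs and 48.9, 52.1 and 70.5 CPM in B cell progenitors, below every other library of the same population. The double-deficient B cell progenitors were lower than the PLCγ2-deficient ones by a log2 difference of -1.96 ± 0.29 (adjusted p = 0.0294, edgeR), a call that was lost without wild-type replicate 1, PLCγ2-deficient replicate 2 or any 1 double-deficient library (adjusted p from 0.057 to 0.196, edgeR), and with the 2 genotypes alone (adjusted p = 0.134, edgeR). Against PLCγ1-deficient cells the difference was -1.24 (adjusted p = 0.146, edgeR) in B cell progenitors. Both comparisons reuse the double-deficient libraries, whose low values chose the gene.

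Slco4a1 encodes an organic anion transporter that carries thyroid hormone, and it is the most distant of the chromosome 2 genes from Plcg1. Its level did not separate the single-deficient genotypes in either population. In CLPs, Slco4a1 stood at 40.0, 37.8 and 48.1 CPM in PLCγ1-deficient and at 37.7, 32.4 and 37.8 CPM in PLCγ2-deficient libraries. The B cell progenitor values were 35.5, 48.6 and 66.3 CPM against 27.8, 36.4 and 58.5 CPM. The libraries differed more within a genotype than between genotypes in B cell progenitors. The log2 difference was 0.22 ± 0.28 in CLPs and 0.32 ± 0.32 in B cell progenitors, the PLCγ1-deficient cells being nominally higher, which is the opposite sign to the 3 adjacent genes.

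Wild-type libraries held 36.1, 79.8 and 94.2 CPM of Slco4a1 in CLPs and 53.7, 70.2 and 102 CPM in B cell progenitors. Both single-deficient genotypes had lower means than wild type, with log2 differences of -0.74 and -0.96 in CLPs and of -0.59 and -0.92 in B cell progenitors for PLCγ1 and PLCγ2 deficiency, and none of the 4 was called. The median of the myeloid marker sum was higher in both genotypes than in wild type, in CLPs and in B cell progenitors. For the macrophage sum, the medians were 54.2 CPM in wild-type, 75.9 in PLCγ1-deficient and 58.9 in PLCγ2-deficient CLPs. In B cell progenitors they were 51.6, 59.4 and 47.0 CPM in the same order. The part of cell composition in the levels of Slco4a1 was not tested. Double-deficient libraries held 32.6, 23.8 and 25.2 CPM of Slco4a1 in CLPs and 27.4, 20.8 and 31.1 CPM in B cell progenitors. The sum of the single differences in B cell progenitors was -1.51 on the log2 scale and the double-deficient difference, which chose the gene, was -1.52, both read against the same wild-type libraries.

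Sipa1l2, which encodes a member of a family of Rap GTPase-activating proteins, is the gene linked to Plcg2, whose targeted allele is a germline null. Its levels in the single-deficient genotypes, of which only the PLCγ2-deficient one carries that allele, overlapped in both populations. In CLPs, Sipa1l2 stood at 27.3, 18.1 and 25.9 CPM in PLCγ1-deficient and at 29.6, 12.7 and 21.5 CPM in PLCγ2-deficient libraries. The B cell progenitor values were 25.4, 33.4 and 25.5 CPM against 21.7, 34.0 and 23.1 CPM. Replicate 2 was the lowest of the PLCγ2-deficient libraries in CLPs and the highest in B cell progenitors. The log2 differences were 0.16 ± 0.36 in CLPs and 0.06 ± 0.21 in B cell progenitors, neither called.

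Wild-type libraries held 16.9, 42.8 and 29.0 CPM of Sipa1l2 in CLPs and 45.2, 39.5 and 40.0 CPM in B cell progenitors. Each PLCγ1-deficient library and each PLCγ2-deficient library of B cell progenitors was below every wild-type library, with log2 differences of -0.56 and -0.63 that were not called. Both comparisons use the wild-type libraries that served to choose the gene. The share of all genes without such overlap is not given here, and nothing is read from it. Double-deficient libraries held 16.2, 17.8 and 22.5 CPM in CLPs and 13.2, 15 and 18.7 CPM in B cell progenitors. The B cell progenitor difference of -1.40 from wild type, which chose the gene, stood beside a sum of single differences of -1.19, while in CLPs the libraries of all genotypes overlapped.

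**Figure D3:**
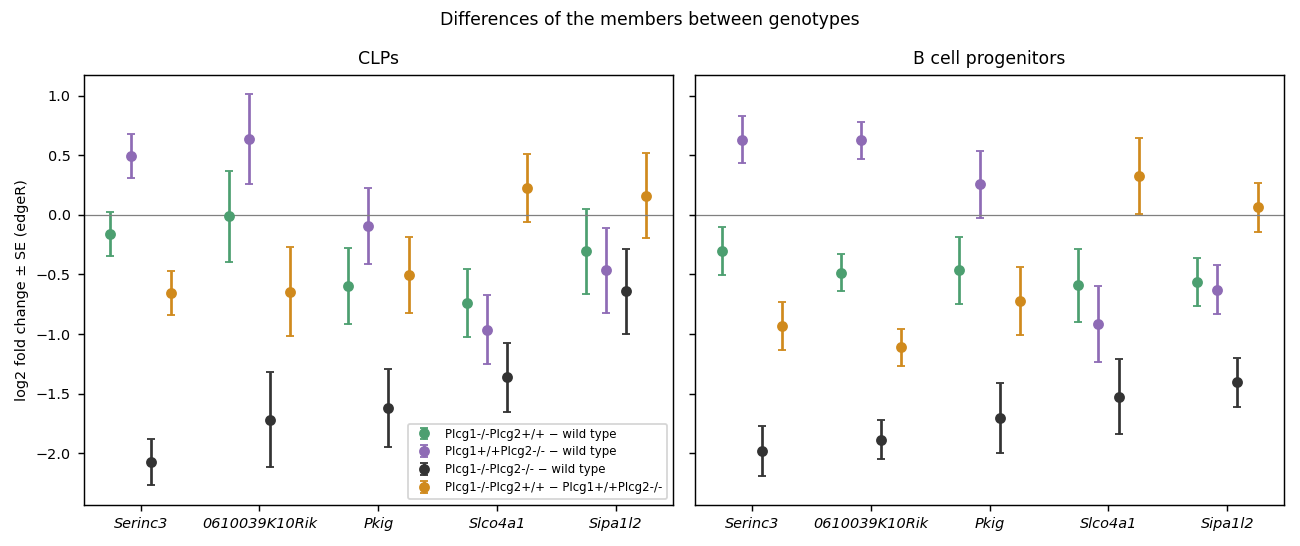
Log2 fold changes ± SE from edgeR (vertical axes) of the 5 genes (horizontal axes) in CLPs (left) and B cell progenitors (right), for each mutant genotype against wild type and for PLCγ1-deficient against PLCγ2-deficient cells (yellow). Serinc3, 0610039K10Rik and Pkig lie below 0 in the yellow comparison, Slco4a1 and Sipa1l2 lie above it, and the differences of double-deficient from wild-type cells (black) are those that chose the genes.

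Read together over the 4 genotypes, all 6 Plcg1-/- libraries of B cell progenitors were below all 6 Plcg1+/+ libraries for Serinc3 and 0610039K10Rik. For Serinc3 the ranges were 320 to 1664 CPM against 1692 to 3196 CPM, and for 0610039K10Rik they were 27.5 to 92.9 CPM against 106 to 205 CPM. The double-deficient and wild-type libraries, which chose the genes, are part of this count. The share of all tested genes that separate in this way was not counted. Within each Plcg1 genotype the means of both genes also differed with Plcg2 genotype. The sex of the cells moved with Plcg1 genotype, so that sex and genotype cannot be told apart here. In CLPs the ranges overlapped for both genes, and those of Pkig and Slco4a1 overlapped by Plcg1 genotype in both populations. Sipa1l2 overlapped by Plcg2 genotype, with 12.7 to 29.6 CPM in Plcg2-/- and 16.9 to 42.8 CPM in Plcg2+/+ CLPs, and with 13.2 to 34.0 against 25.4 to 45.2 CPM in B cell progenitors.

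The sum of the single-deficient differences from wild type had the opposite sign to the double-deficient difference for Serinc3 and 0610039K10Rik. For Serinc3 the sum was 0.33 and the double-deficient value -2.07 on the log2 scale in CLPs, and 0.33 against -1.98 in B cell progenitors. For 0610039K10Rik the sum was 0.14 against -1.89 in B cell progenitors. For Pkig the sum was -0.70 against -1.62 in CLPs and -0.21 against -1.71 in B cell progenitors. The double-deficient differences are those that chose the genes, so that a value below the sum is favoured by the choice, and all of these values share the wild-type libraries. They are a description.

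Counted over the 5 genes, 0 were called between the single-deficient genotypes in CLPs by edgeR, where 0.00658% of all genes were called in either direction. In that comparison 1 of the 5 was below an unadjusted p of 0.05, against 1.16% of all genes, and 0 were called by DESeq2. There 2 had all PLCγ1-deficient libraries below all PLCγ2-deficient ones (Serinc3 and Pkig), against 2.49% of all genes. In B cell progenitors 1 was called, against 0.0733% of all genes, and 3 were below an unadjusted p of 0.05, against 1.57%. In the same population 2 were without overlap (Serinc3 and 0610039K10Rik), against 2.26% of all genes. DESeq2 called 2 of the 5 there, and its share of all genes is not given here. The genes called in that population included Xist, Tsix and the Y-linked Kdm5d, Eif2s3y, Uty and Ddx3y, so that the sex of the cells moved with this comparison. Its part in the levels of the 5 genes was not tested.

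Against wild type, edgeR called 0 of the 5 in PLCγ1-deficient CLPs (0.00658% of all genes), 0 in PLCγ2-deficient CLPs (0% of all genes), 0 in PLCγ1-deficient B cell progenitors (0.06%) and 0 in PLCγ2-deficient B cell progenitors (0.0467%). DESeq2 also called 0 in each of the 4. At an unadjusted p of 0.05 the count was 1 lower in PLCγ1-deficient CLPs, 1 lower and 1 higher in PLCγ2-deficient CLPs, 2 lower in PLCγ1-deficient B cell progenitors, and 2 lower and 2 higher in PLCγ2-deficient B cell progenitors. Of all genes, 2.85%, 3.92%, 9.93% and 2.84% were below that p in the same 4 comparisons, in either direction. The median of all genes tested lay within 0.06 of 0 on the log2 scale in each comparison.

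Double-deficient CLPs were lower than PLCγ2-deficient CLPs for 1 of the 5 (Serinc3), where 0.0197% of all genes were called lower, and 2 with the mouse number as a block (0610039K10Rik, adjusted p = 0.0381, edgeR). In that comparison 3 of the 5 did not overlap, against 7.4% of all genes. They were lower than PLCγ1-deficient CLPs for 1 of the 5 (Serinc3), against 0.00658% of all genes, with 4 of the 5 not overlapping, against 4.89%. Double-deficient B cell progenitors were lower than PLCγ2-deficient ones for 3 of the 5 (Serinc3, 0610039K10Rik and Pkig), against 0.1% of all genes, with 4 not overlapping, against 7.97%. They were lower than PLCγ1-deficient ones for 2 of the 5 (Serinc3 and 0610039K10Rik), against 0.153%, with 5 not overlapping, against 11%. These shares reuse the double-deficient libraries that chose the genes. In the choosing contrast itself, 1 of the 5 was called lower in CLPs (0.0526% of all genes) and 5 in B cell progenitors (0.673% of all genes), and nothing is read from those counts. The gene nearest inside the threshold there was Slco4a1 (adjusted p = 0.047, edgeR), and the nearest outside within 25 Mb of either locus was E2f1, 6.17 Mb from Plcg1 on the other side, with a log2 difference of -0.58 (adjusted p = 0.0979, edgeR).

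The difference between the single-deficient genotypes was not detectably different between the populations. The B cell progenitor value minus the CLP value was -0.29 ± 0.27 for Serinc3, -0.45 ± 0.31 for 0610039K10Rik, -0.23 ± 0.44 for Pkig, 0.09 ± 0.45 for Slco4a1 and -0.10 ± 0.43 for Sipa1l2 on the log2 scale. Of the 5 genes, 0 were called and 0 were below an unadjusted p of 0.05 in edgeR, the tool run for this contrast, and 0% of all 17212 genes were called.

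The tested genes on either side of the 3 adjacent genes were called in no comparison, and their means were ordered differently. Ttpal, which encodes a protein related to the alpha-tocopherol transfer protein, ends 4.26 kb before Serinc3. Its means in CLPs were 134 CPM in wild-type, 106 in PLCγ1-deficient, 76.0 in PLCγ2-deficient and 179 in double-deficient cells. In B cell progenitors they were 205, 142, 97.8 and 215 CPM in the same order. By means, Ttpal was thus lowest in PLCγ2-deficient cells, where Serinc3 was highest. Its double-deficient mean was the highest, but those libraries overlapped wild type in both populations. They ran from 106 to 251 against 76.6 to 188 CPM in CLPs, and from 106 to 328 against 181 to 236 CPM in B cell progenitors. The single-deficient difference was 0.48 ± 0.33 on the log2 scale in CLPs and 0.52 ± 0.33 in B cell progenitors, neither called. Double-deficient minus PLCγ2-deficient Ttpal was 1.24 in CLPs (adjusted p = 0.462, edgeR) and 1.13 in B cell progenitors (adjusted p = 0.333, edgeR). Ada, the adenosine deaminase gene whose loss causes severe combined immunodeficiency, is the next tested gene after Pkig, with single-deficient differences of 0.60 ± 0.37 in CLPs and -0.01 ± 0.45 in B cell progenitors.

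The tested neighbours of Slco4a1 and Sipa1l2 were also called in no comparison. Around Slco4a1, the difference between PLCγ1- and PLCγ2-deficient cells was 0.34 in CLPs and 0.62 in B cell progenitors on the log2 scale for Gm6307, and 0.03 and -0.36 for Mrgbp. Around Sipa1l2, it was 0.01 and -0.06 for Disc1, a gene first found at a translocation in psychiatric disease, and 0.32 and 0.07 for Map10. Gm6307, Disc1 and Map10 had means under 4 CPM in these groups.

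Over the 25 Mb on each side of Plcg1, 351 genes were tested in CLPs and 335 in B cell progenitors. Between the single-deficient genotypes edgeR called 0 of them in CLPs and 1 in B cell progenitors, which was 0610039K10Rik. The share below an unadjusted p of 0.05 was 1.14% in CLPs and 2.09% in B cell progenitors, beside 1.16% and 1.57% of all genes tested. Around Plcg2, 300 and 295 genes were tested, 0 were called in CLPs, and Plcg2 itself was the 1 called in B cell progenitors (log2 difference of 1.18, adjusted p = 0.0198, edgeR). The shares at an unadjusted p of 0.05 were 1.33% and 1.36%. The numbers called were the same within 10 Mb and within 5 Mb, but the shares at an unadjusted p of 0.05 were not. Within 5 Mb they were 1.92% in CLPs and 5.05% in B cell progenitors around Plcg1. Around Plcg2 they were 1.79% and 5.36%. The 5 Mb windows held 99 and 56 tested genes in B cell progenitors, with Serinc3, 0610039K10Rik, Pkig and Plcg2 among them. Within 25 Mb the median log2 difference of the genes around Plcg1 was 0.04 in CLPs and 0.00 in B cell progenitors. The only higher call in either region in any comparison was Lpcat2, a lysophospholipid acyltransferase gene 24.6 Mb from Plcg2, which was higher in double-deficient than in PLCγ1-deficient B cell progenitors by 1.08 on the log2 scale (adjusted p = 0.0457, edgeR) and than in wild-type ones by 1.23, leaving aside Plcg2 itself.

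**Figure D4:**
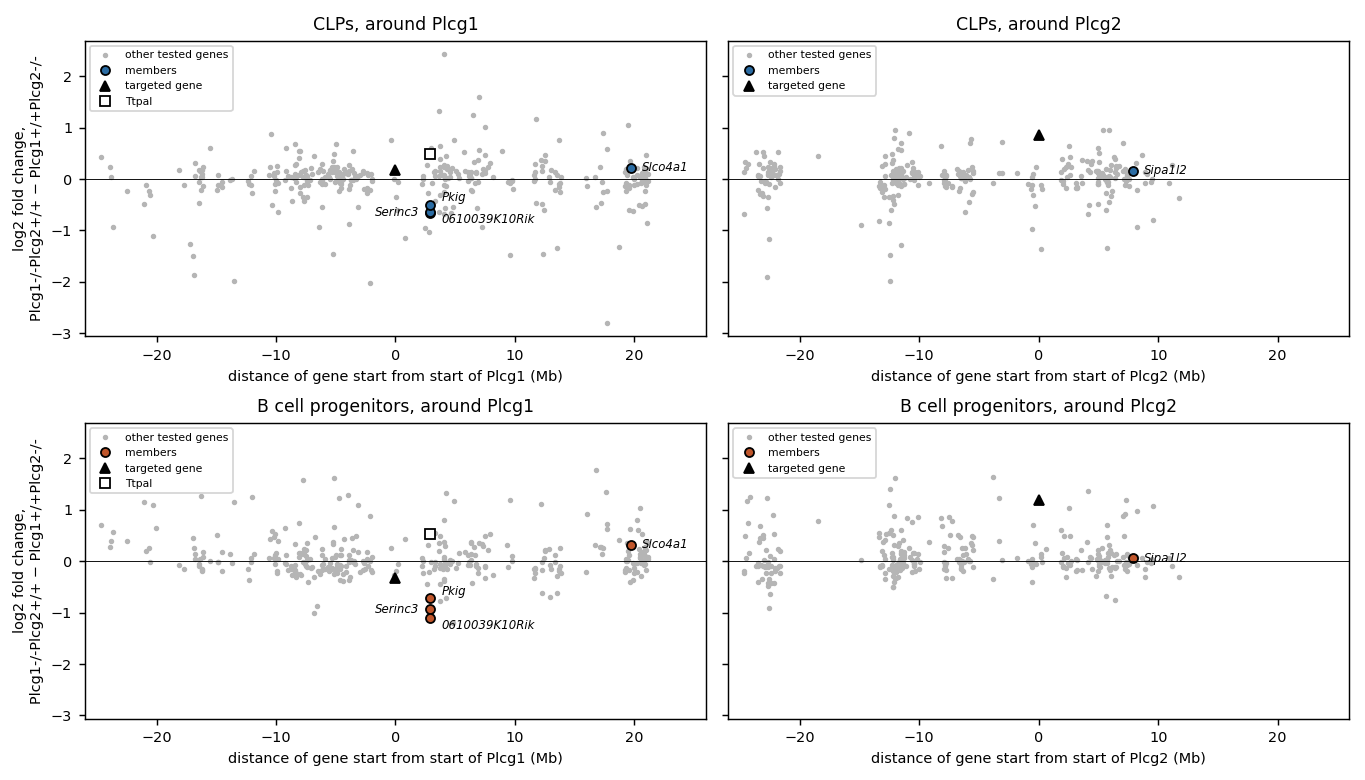
Log2 fold change of PLCγ1-deficient against PLCγ2-deficient cells (vertical axes) for every tested gene within 25 Mb of Plcg1 (left) or Plcg2 (right), by distance of the gene's start from that of the targeted gene in Mb (horizontal axes), in CLPs (top) and B cell progenitors (bottom). Serinc3, 0610039K10Rik and Pkig lie together below 0 beside Ttpal above 0, while Slco4a1 and Sipa1l2 lie near 0 among their neighbours.

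Per kilobase of exon, 4 of the 5 genes had the same order in both wild-type populations. Serinc3 held 357 CPM per kb in CLPs and 467 in B cell progenitors, Pkig held 35.6 and 46.9, Slco4a1 held 14.6 and 15.7, and Sipa1l2 held 3.08 and 4.33. 0610039K10Rik moved from 2.57 CPM per kb, below Sipa1l2, in CLPs to 126, above Pkig, in B cell progenitors.

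The genes whose levels were most like each of the 5 were taken from 12721 genes, by the mean over the populations of Pearson's r of log2 CPM over 12 libraries. For Serinc3 they were 0610039K10Rik (mean r of 0.96), Pkig (0.91) and A430035B10Rik on chromosome 6 (0.86). For 0610039K10Rik, after Serinc3, they were Kdm5d (0.83) and Ddx3y (0.83), which are on the Y chromosome and differ with the sex of the cells. Pkig was most like Tmprss3 (0.95), Myl4 (0.95) and Dennd5b (0.92). Slco4a1 was most like Sgms1 (0.89), Bhlhe41 (0.88) and Tubb2b (0.86), and Sipa1l2 was most like Sbk1 (0.94), 4930523C07Rik (0.92) and Tubb2b (0.91). None of the latter genes is on chromosome 2 or 8, and the points share library, mouse and depth. The 12 libraries include the double-deficient and wild-type ones that chose the genes, so that likeness among the 5 is favoured by the choice.

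Relatives and partners of the 5 genes elsewhere in the genome gave 0 calls between the single-deficient genotypes by edgeR in both populations. Of the other serine incorporators, 4 of 4 were tested in CLPs and 3 of 4 in B cell progenitors, with medians of -0.02 and 0.20 on the log2 scale beside 0.01 and 0.04 for all genes. Serinc1 differed by -0.01 and 0.02 and Serinc5 by -0.15 and 0.20. Of the protein kinase A subunits and other inhibitors, 8 of 8 and 6 of 8 were tested, with medians of 0.06 and -0.12, and Prkaca, a catalytic subunit, differed by 0.09 and -0.15. Of the organic anion transporters, 7 of 14 and 10 of 14 were tested, with medians of -0.14 and 0.66, most of them at low counts. Slco2a1 alone was below an unadjusted p of 0.05, at -2.49 in CLPs. Of the Sipa1 family and Rap regulators, 10 of 10 were tested in both, with medians of 0.10 and -0.02, and Rap1gap was below an unadjusted p of 0.05, at -1.49 in B cell progenitors. Sipa1l1 differed by 0.10 and -0.01 and Sipa1l3 by 0.14 and -0.01.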

How the data were processed

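Poly(A)-selected RNA of 24 libraries was sequenced after library preparation with the NEBNext Ultra kit. The deposited values are counts of reads per gene, which the authors made from alignments by STAR 2.5.0a to mm10 and did not normalize. The counting tool and its strand setting are not given in the sources used here, and rows that name no gene were left out of library sizes.

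From these counts, edgeR 4.0.16 in R 4.3.3 was run with filterByExpr, TMM factors and glmQLFit, with 1 fit of 12 libraries for each population and 1 fit of 24 libraries for contrasts of populations. A called gene had an adjusted p (Benjamini-Hochberg, all genes tested) no higher than 0.05 and a log2 fold change of 0.5 or more in either direction. Normalized CPM is a count per 1000000 TMM-scaled reads. The alternatives were DESeq2 1.42.0, another scaling, no filter, the adjusted p alone, each pair of genotypes alone, thinning to the smallest library, a replicate block, leaving out each library, and leaving out all B cell progenitor libraries under 3000000 reads, the last chosen after seeing the data. The fits were tested on simulated data.

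The 5 genes and all gene lists were chosen with earlier results of these data known. Besides the 5, the genes named were Plcg1, Plcg2, Xist and Y-linked genes, the nearest tested gene on each side, genes called within 25 Mb of a targeted gene, the 3 genes most like each in pattern, and fixed lists of relatives and cell markers. Tsix, E2f1, Lpcat2 and the examples within each list of relatives were added after their values were seen.

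The labels number mice 1 to 3 in each genotype. Deviations from the genotype means of libraries with the same number correlated above 0.1 for all 3 numbers between the 3 mutant genotypes in CLPs (0.24 to 0.64) and between PLCγ2-deficient and double-deficient B cell progenitors (0.21 to 0.31), and not in the other pairs of genotypes. The libraries of 1 mouse are paired across populations by the labels. Replicates differed beyond sampling noise (chi-square per degree of freedom of at least 8.28).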

Additional observations from a re-analysis of the deposited data

Results flagged for a closer look

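Serinc3 in both populations and 0610039K10Rik in B cell progenitors were picked because loss of PLCγ2 went with opposite changes with and without Plcg1. With Plcg1 intact every Plcg2-/- library was above every Plcg2+/+ library, and with Plcg1 deleted every one was below. That separation was the rule for picking them, and the share of all genes that meet it was not counted. For Serinc3 the difference that goes with loss of PLCγ2 was 0.49 on the log2 scale with Plcg1 intact in CLPs. It was -1.91 with Plcg1 deleted, a difference of -2.40. In B cell progenitors it was 0.63 and -1.68 for Serinc3, a difference of -2.31. For 0610039K10Rik in B cell progenitors it was 0.62 and -1.40, a difference of -2.02. The differences themselves were not tested, since they rest on the wild-type and double-deficient libraries that chose the genes.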

How the results depend on the processing

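Scaling by relative log expression, no filter on low counts, the adjusted p alone and thinning to the smallest library moved no count of called genes by more than 1.5 times. The shares of all genes called that are given above are those of edgeR and do not apply to DESeq2. DESeq2 called 2 of the 5 between the single-deficient B cell progenitors in place of 1, 4 in place of 2 for double-deficient against PLCγ1-deficient B cell progenitors, and in CLPs 3, 2 and 4 in place of 1 each for double-deficient against PLCγ2-deficient, PLCγ1-deficient and wild-type cells. With the 2 genotypes alone, which leaves fewer samples to estimate the spread, all 5 of these counts were 0, and double-deficient against PLCγ2-deficient B cell progenitors lost Pkig. Without the libraries under 3000000 reads the count between the single-deficient B cell progenitors was 0, and Sipa1l2 changed sign to -0.27 there. For 0610039K10Rik in CLPs, PLCγ1-deficient minus wild type was 0.0078 with no filter, 0.011 with DESeq2 and 0.0096 with the replicate block, in place of -0.01. The cause of these changes was not tested.

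With the replicate block the count was 2 in place of 1 for double-deficient against PLCγ2-deficient CLPs and 4 in place of 2 for double-deficient against PLCγ1-deficient B cell progenitors, where the numbers did not pair the samples by the correlation. The block moved no other count by more than 1.5 times, and the mouse as a block changed no call between populations.

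Leaving out 1 library at a time gave counts of 0 to 1 between the single-deficient B cell progenitors. For double-deficient cells the counts were 0 to 1 (CLPs) and 0 to 2 (B cell progenitors) against PLCγ1-deficient, 1 to 2 and 2 to 3 against PLCγ2-deficient, and 0 to 3 and 3 to 5 against wild type. Signs turned only in small differences. For Pkig, PLCγ2-deficient minus wild type ran from -0.47 to 0.32 in CLPs and from -0.087 to 0.42 in B cell progenitors, and the difference between populations from -0.47 to 0.041. For Sipa1l2, PLCγ1- minus PLCγ2-deficient ran from -0.10 to 0.51 in CLPs and from -0.082 to 0.33 in B cell progenitors, double- minus PLCγ2-deficient from -0.44 to 0.18 and PLCγ1-deficient minus wild type from -0.61 to 0.052 in CLPs, and the difference between populations from -0.46 to 0.16. For Slco4a1, B cell progenitors minus CLPs in wild type ran from -0.19 to 0.41 and the difference between populations from -0.20 to 0.37. For 0610039K10Rik, PLCγ1-deficient minus wild-type CLPs ran from -0.15 to 0.13. Depth limits 0610039K10Rik in CLPs, which had 6 to 94 reads a library.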
